A study of Mus musculus with 6 samples.

Results

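Semaphorins with their plexin receptors, Slits with their Robo receptors and the Srgap proteins that bind Robo tails, and netrins with their UNC5 receptors are the guidance families described here. They were chosen by gene symbol among the protein-coding genes of the count table, whatever their counts, and comprised 47 of its 55416 genes: 20 semaphorins, 9 plexins, 3 Slits, 4 Robos, 3 Srgaps, 4 netrins and 4 UNC5 receptors. RNA-Seq was performed on mGFP+ coronary endothelial cells (ECs) sorted from mouse heart ventricles at E15.5, with 3 libraries from ControlΔEC embryos and 3 from Wt1KOΔEC embryos. Wt1KOΔEC embryos carried Pdgfb-CreERT2/+, Wt1-LoxP/LoxP and R26-mTmG/+, and ControlΔEC embryos carried Pdgfb-CreERT2/+, Wt1-+/+ and R26-mTmG/+. Both genotypes thus shared the Cre driver, the mTmG reporter and the tamoxifen that their dams received by oral gavage at 75 mg/kg between E11.5 and E13.5. The matings were set up to give both in the same litters, but whether the sequenced libraries were matched by litter is not given. The library codes of the deposited counts begin with AT for all ControlΔEC and with AU for all Wt1KOΔEC libraries. What these codes stand for is not given, and any difference between the code series cannot be told apart from genotype. Recombination, and with it the mGFP that was sorted on, follows Pdgfb promoter activity, so that the sorted population depends on this driver. The sources used here do not give how many hearts made up a library.

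Semaphorins are ligands that are secreted or held on the membrane, and they signal through plexins, receptors whose cytoplasmic part acts on small GTPases and thereby on the cytoskeleton and on integrin adhesion. Secreted class 3 members mostly need a neuropilin as co-receptor. Slits are secreted proteins that bind Robo receptors, whose cytoplasmic tails recruit Srgap proteins, and netrins are laminin-related proteins that attract cells through DCC and neogenin or repel them through UNC5 receptors. First described in growing axons, these families also steer sprouting vessels: plexin D1 restrains endothelial growth, Robo4 is largely restricted to endothelium, and Unc5b is prominent in arterial and tip ECs.

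The libraries held between 26037324 and 44779020 counts, so that 3 counts, the most that a count of 0 allows for, corresponded to 0.0608 to 0.119 CPM, the unit of counts scaled to a common library total. This floor covers counting error only. Levels are given in CPM after TMM scaling, and a fold change is the log2 ratio of Wt1KOΔEC over ControlΔEC fitted by edgeR, given with its standard error (SE). A gene was tested if 2 or more libraries held 10 or more of its counts, and a gene was called when its adjusted p-value in edgeR's quasi-likelihood test with Benjamini-Hochberg adjustment was under 0.05 and its absolute log2 fold change was above 0.58. Wt1 itself measured 145, 109.5 and 149 CPM in ControlΔEC and 14.0, 18.4 and 21.3 CPM in Wt1KOΔEC, a log2 fold change of -2.91 (SE 0.22, adjusted p = 0.00319 in edgeR). All 11 endothelial markers were tested, with summed levels of 6495 to 7894 CPM in ControlΔEC and 6445 to 7420 CPM in Wt1KOΔEC. At an unadjusted p under 0.05 in edgeR, Emcn was higher in Wt1KOΔEC (mean 343 CPM in ControlΔEC against 455 CPM) and 0 were lower. Kdr averaged 1136 CPM in ControlΔEC and 931 CPM in Wt1KOΔEC, without overlap (unadjusted p = 0.067 in edgeR). Several measures that are not guidance genes moved with genotype. The ribosomal RNA Rn18s took 13.2 to 15.3% of counts in ControlΔEC and 21.1 to 26.5% in Wt1KOΔEC, and mitochondrial genes took 5.21 to 6.61% and 1.68 to 4.57%.

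To see which guidance genes these ECs carried, levels were divided by exonic length (CPM per kb), since a long transcript collects more reads. The families were represented very unevenly: 19 of the 47 genes reached 10 CPM on average in ControlΔEC, whereas 11 stayed under 1 CPM. Plxnd1 was at the top with 88.4 ± 6.82 CPM per kb (SD, n = 3), followed by Robo4 with 73.6 ± 14.2 CPM per kb. These receptor transcripts, ranking 259 and 300 among 21687 protein-coding genes with a length, together made up 50.3% of the summed CPM of all 47 genes in ControlΔEC and 52.4% in Wt1KOΔEC. The ranges of Plxnd1 and Robo4 overlapped across libraries, but within each library Plxnd1 was above Robo4 per kb. Sema6d followed with 27.4 ± 1.33 CPM per kb, the most abundant ligand, below every library of Robo4 and above every library of Unc5b at 13.9 ± 2.53 CPM per kb. The next genes lay close to each other: Plxnb2 had 10.6 ± 2.53, Sema6a 8.21 ± 1.46 and Srgap2 6.62 ± 1.45 CPM per kb. Srgap1 (5.58 ± 0.901), Plxna2 (5.22 ± 1.57) and Sema7a (5.07 ± 2.35 CPM per kb) completed the first 10, and from Unc5b down each neighbour in this order differed from the next by less than their SDs combined. In the plot of levels per kb, the genotypes separate at Sema6d, Srgap1 and Sema3g, and only by a narrow margin at Sema7a. The points of Plxnd1, Robo4 and Unc5b intermingle.

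**Figure D1:**
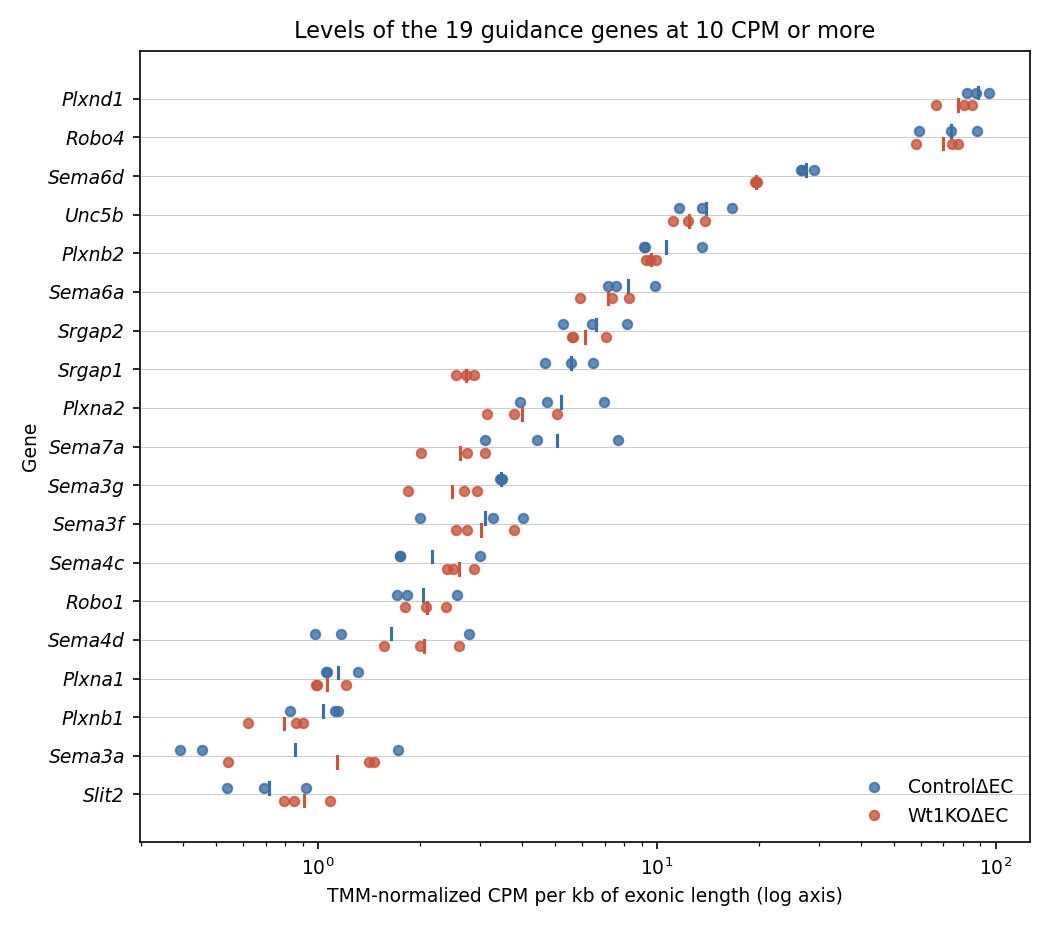
TMM-normalized CPM per kb of exonic length (log axis) of the 19 guidance genes with a mean of 10 CPM or more in ControlΔEC, ordered by their ControlΔEC mean. Each point is 1 library (blue ControlΔEC, red Wt1KOΔEC; n = 3 each) and the vertical ticks are means; Plxnd1 and Robo4 stand apart at the top, at 88.4 and 73.6 CPM per kb in ControlΔEC.

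The genes that separated the genotypes were mostly semaphorins, although none passed the test. No guidance gene was called by edgeR, 0 of 43 tested, against 12 of all 16296 genes tested (0.0736%). At an unadjusted p under 0.05, 5 of the 43 were lower in Wt1KOΔEC (11.6%, against 7.12% of all genes tested), namely Sema5a, Sema5b, Sema6d, Sema7a and Srgap1, and 1 was higher (2.33%, against 5.96%), Plxnb3. Every ControlΔEC library exceeded every Wt1KOΔEC library in 8 genes (18.6%, against 8.97% of all genes tested), which were Sema3g, Sema4a, Sema5a, Sema5b, Sema6b, Sema6d, Sema7a and Srgap1. The opposite arrangement occurred in 0 genes, against 10.3% of all genes tested. Of the 8, 7 were among the 19 semaphorins tested, and 0 of the 16 plexin, Robo and UNC5 receptors tested separated in this way. DESeq2, which the study also used, was run here in version 1.42.0 and after the count filter. It called 2 guidance genes lower, Sema5a and Srgap1, where it called 2.02% of all genes tested lower, and 0 higher, where it called 1.66%. The paper itself names Sema5a and Sema6d among the genes downregulated in mutant cells. In the run here the change of Sema6d was inside the fold limit. The log2 fold change lay below 0 in 28 of the 43 genes (65.1%, against 52% of all genes tested), with a median of -0.15 beside -0.027 for all genes. Without Wt1KOΔEC replicate 3 this median was -0.084, without Wt1KOΔEC replicate 2 it was -0.25, and it was -0.25 and -0.24 without ControlΔEC replicates 1 and 3. Guidance genes are long, with a median exonic length of 9020 bp against 5596 bp for all genes tested. With length and GC offsets in the fit, their median log2 fold change was -0.18 beside -0.023 for all genes. In bulk RNA, fewer cells that carry a transcript and less of it per cell cannot be told apart.

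**Figure D2:**
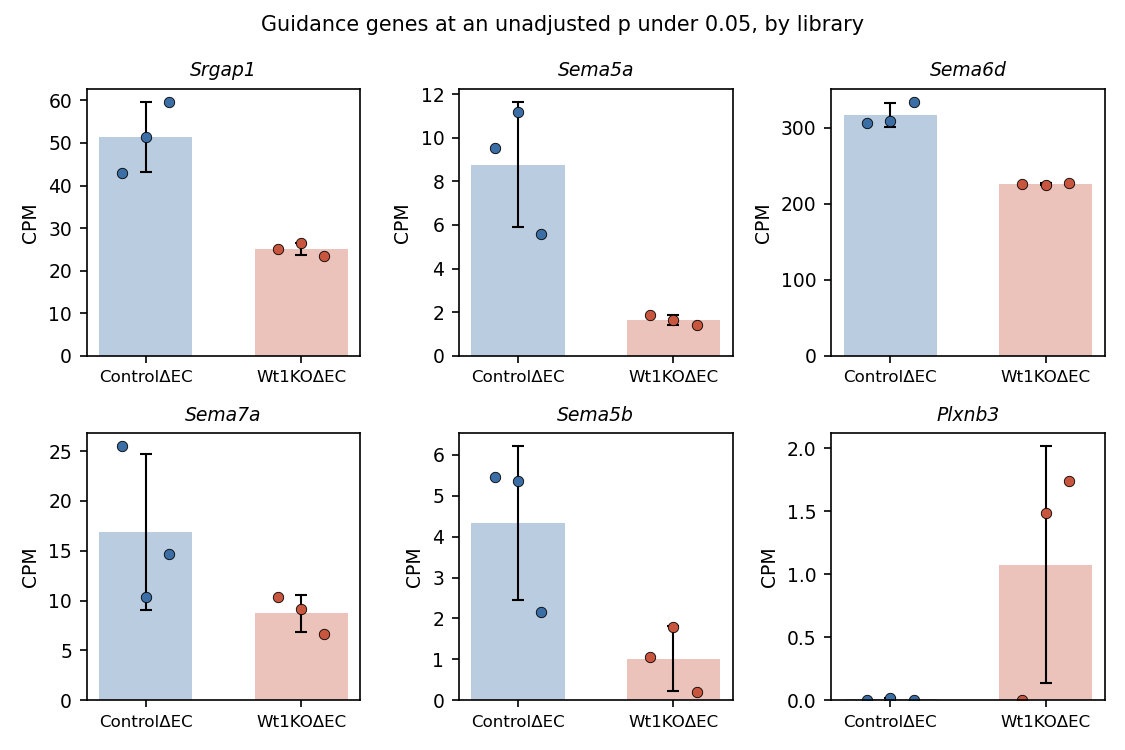
TMM-normalized CPM of the 6 guidance genes at an unadjusted p under 0.05, with 1 point per library, bars at the mean and error bars of 1 SD (n = 3 per genotype). Srgap1, Sema5a and Sema6d separate the genotypes. Sema5b (nearest libraries at 2.15 and 1.80 CPM) and Sema7a (at 10.3 CPM) do so only narrowly. Plxnb3 is at or near 0 in all ControlΔEC libraries and in 1 Wt1KOΔEC library.

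Markers of other cell types moved with genotype beside these counts. At an unadjusted p under 0.05, 5 of 8 macrophage markers were lower in Wt1KOΔEC, with summed levels of 258 to 787 CPM in ControlΔEC and 189 to 273 CPM in Wt1KOΔEC, as were 4 of the 9 mural markers tested, with 469 to 639 CPM and 329 to 387 CPM. Higher in Wt1KOΔEC were 5 of 10 fibroblast markers (766 to 1067 CPM against 1420 to 1653 CPM), 2 of 9 epicardial markers (41.8 to 52.4 CPM against 66.8 to 89.1 CPM), 5 of 7 endocardial markers (787 to 820 CPM against 793 to 993 CPM) and 2 of 6 lymphatic markers (311 to 347 CPM against 409 to 577 CPM). Cardiomyocyte markers summed to 208 to 291 CPM and 178 to 380.2 CPM and neural and Schwann markers to 30.1 to 38.9 CPM and 18.5 to 56.4 CPM, with 2 of these 9 at 0 in every library. The 8 erythroid markers, 6569 to 14351 CPM in ControlΔEC and 5135 to 8531 CPM in Wt1KOΔEC in sum, went both ways at an unadjusted p under 0.05: Hbb-bt and Alas2 were lower, and the embryonic globins Hbb-y (26.2 ± 18.1 against 156 ± 46.6 CPM) and Hba-x (10.9 ± 8.12 against 47.4 ± 20.8 CPM) were higher. The part of any of these markers, and of the Rn18s and mitochondrial shares, in the lower levels of Sema5a, Sema5b, Sema6d, Sema7a and Srgap1, and in the differences of the pathway genes, was not tested.

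WT1 is a zinc finger transcription factor known to bind GC-rich sites, so the bases just upstream of the start sites of the 3 genes with the smallest p-values, Srgap1, Sema5a and Sema6d, are shown. Each window holds the 250 bases before an annotated start, 5′ to 3′ on the gene's strand, from RefSeq on GRCm38.p6. Capitals mark matches to GNGGGGGNG, where N is any base; GCGGGGGCG, a special case of it, and GCGTGGGAG were searched as well, all on both strands.

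Sema5a, chr15:32244563-32244812, plus strand: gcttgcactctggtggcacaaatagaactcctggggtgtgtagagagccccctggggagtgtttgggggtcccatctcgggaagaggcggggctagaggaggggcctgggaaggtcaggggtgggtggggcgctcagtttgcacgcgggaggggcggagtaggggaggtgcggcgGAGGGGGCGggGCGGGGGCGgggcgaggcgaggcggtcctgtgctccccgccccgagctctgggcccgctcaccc

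Srgap1, chr10:122047316-122047565, minus strand: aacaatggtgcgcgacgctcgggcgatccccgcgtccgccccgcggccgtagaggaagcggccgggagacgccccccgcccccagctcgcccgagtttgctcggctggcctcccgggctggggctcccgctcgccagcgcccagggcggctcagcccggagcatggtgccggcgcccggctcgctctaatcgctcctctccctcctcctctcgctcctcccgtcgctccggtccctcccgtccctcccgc

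Sema6d, first start, chr2:124089719-124089968, plus strand: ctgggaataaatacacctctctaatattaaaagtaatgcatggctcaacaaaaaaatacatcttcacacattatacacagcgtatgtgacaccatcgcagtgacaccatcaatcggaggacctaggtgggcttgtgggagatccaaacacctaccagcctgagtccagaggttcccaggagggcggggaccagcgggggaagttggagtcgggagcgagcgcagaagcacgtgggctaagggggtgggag

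Sema6d, second start, chr2:124653331-124653580, plus strand: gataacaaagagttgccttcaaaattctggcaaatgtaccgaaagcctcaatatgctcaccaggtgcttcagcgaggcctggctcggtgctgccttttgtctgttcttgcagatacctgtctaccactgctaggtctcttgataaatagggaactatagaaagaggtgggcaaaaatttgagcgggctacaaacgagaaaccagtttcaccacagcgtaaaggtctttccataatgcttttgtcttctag

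The Sema5a window held GAGGGGGCG and GCGGGGGCG, beginning 75 and 64 bases before the start, and the letters searched did not occur in the windows of Srgap1 and Sema6d. Among 32851 such windows, 2.57% held GCGGGGGCG, 0.405% held GCGTGGGAG and 17.0% held GNGGGGGNG. Of the 52 windows of the 39 guidance genes present in that table, 4 held GCGGGGGCG (those of Plxnb2, Sema4g, Sema5a and Slit2), 0 held GCGTGGGAG and 16 held GNGGGGGNG. The guidance windows are also richer in G and C, with a median of 63.8% against 52.4% over all windows, and a match is a description of the letters and not a site of binding.

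Among the ligands, the class 5 semaphorin Sema5a showed a wide gap between the genotypes. Sema5a, a transmembrane semaphorin with thrombospondin repeats that binds plexin B3 and proteoglycans, lies on chr15:32244919-32696487 (GRCm39, ENSMUSG00000022231.11). Its levels were 9.54, 11.2 and 5.58 CPM in ControlΔEC and 1.87, 1.63 and 1.42 CPM in Wt1KOΔEC. Each Wt1KOΔEC library was thus well under the lowest ControlΔEC library, a 5.34-fold lower mean, with a log2 fold change of -2.42 (SE 0.48, 95% interval -3.51 to -1.32, adjusted p = 0.114 in edgeR). DESeq2 gave an adjusted p of 0.000465, and over all alternatives the adjusted p ranged from 2.1e-05 to 0.392. Its only close relative, Sema5b (chr16:35360820-35485102, GRCm39), showed 5.47, 5.37 and 2.15 CPM in ControlΔEC and 1.05, 1.80 and 0.198 CPM in Wt1KOΔEC. These values were low and scattered, and they separated only narrowly, with the nearest libraries at 2.15 and 1.80 CPM. The log2 fold change was -2.09 (SE 0.89, adjusted p = 0.365 in edgeR). Part of the Sema5a exons, 631 bp, overlaps the antisense Snhg18, and reads of such pairs cannot be told apart without strand.

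The class 6 semaphorins are transmembrane ligands that can also act as receptors, and Sema6d, which signals through plexin A1 and takes part in cardiac morphogenesis, was the best measured of them. It lies on chr2:123931715-124509928 (GRCm39, ENSMUSG00000027200.18), on the chromosome that carries Wt1 but 18.9 Mb away. Its ControlΔEC libraries held 307, 309 and 334 CPM and its Wt1KOΔEC libraries 226, 225 and 227 CPM. The Wt1KOΔEC values were almost identical and all lay below ControlΔEC, a 1.40-fold lower mean with a log2 fold change of -0.48 (SE 0.14, 95% interval -0.79 to -0.18, adjusted p = 0.220 in edgeR). DESeq2 gave an adjusted p of 0.00497 with a change inside the fold limit, and the range over all alternatives was 0.00113 to 0.537. Sema6a, the other abundant class 6 member and a ligand of plexins A2 and A4, had 72.3, 68.2 and 94.2 CPM in ControlΔEC and 78.8, 56.5 and 70.1 CPM in Wt1KOΔEC. The genotypes overlapped, and the log2 fold change was -0.19 (SE 0.19, 95% interval -0.63 to 0.25, adjusted p = 0.769 in edgeR). Sema6b, a further plexin A ligand, was lower without overlap at 7.89, 9.52 and 5.55 CPM against 3.71, 2.19 and 5.22 CPM, but its log2 fold change of -1.05 had a 95% interval of -2.14 to 0.047. Sema6c averaged 0.482 CPM in ControlΔEC.

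Sema7a, a GPI-anchored semaphorin that binds plexin C1 and β1 integrins, lies on chr9:57847375-57870151 (GRCm39). It had 25.5, 10.3 and 14.7 CPM in ControlΔEC and 10.3, 9.12 and 6.68 CPM in Wt1KOΔEC. ControlΔEC replicate 1 stood well above the other libraries, and the lowest ControlΔEC value equalled the highest Wt1KOΔEC value to the first decimal, so that the separation of the genotypes was marginal. The log2 fold change was -0.95 (SE 0.38, adjusted p = 0.338 in edgeR), and it was -0.52 without ControlΔEC replicate 1. Its receptor Plxnc1 measured 3.04, 6.69 and 6.24 CPM in ControlΔEC and 10.1, 8.90 and 6.45 CPM in Wt1KOΔEC, overlapping between genotypes with a log2 fold change of 0.67 (SE 0.44, adjusted p = 0.589 in edgeR).

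The secreted class 3 and the membrane-bound class 4 semaphorins showed smaller or less certain differences, and 0 of the 12 tested passed an unadjusted p of 0.05. Sema3g, a class 3 ligand that endothelium makes and that acts through neuropilin 2, had 15.8, 15.7 and 15.7 CPM in ControlΔEC and 12.2, 13.4 and 8.35 CPM in Wt1KOΔEC. All Wt1KOΔEC libraries were below the narrow ControlΔEC range, with a log2 fold change of -0.48 (SE 0.28, adjusted p = 0.533 in edgeR). Sema4a was at 3.69, 1.99 and 3.12 CPM against 1.89, 0.365 and 0.712 CPM, a log2 fold change of -1.56 (SE 0.89, adjusted p = 0.514 in edgeR). Its Wt1KOΔEC libraries spread widely, with 74, 13 and 18 counts. Sema3f, a ligand of neuropilin 2, averaged 17.5 ± 5.81 CPM in ControlΔEC and 17.1 ± 3.73 CPM in Wt1KOΔEC, and Sema4c and Sema4d likewise overlapped with log2 fold changes of 0.26 and 0.32. Sema3a ranged from 6.12 to 26.9 CPM within ControlΔEC, a spread wider than the difference between the genotypes. Sema3e, the ligand that binds plexin D1 without a neuropilin, averaged 0.468 CPM in ControlΔEC and 0.312 CPM in Wt1KOΔEC, beside a receptor with 701 CPM. Sema4f had no count in any library.

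The abundant plexins overlapped between the genotypes. Plxnd1 (chr6:115931772-115972286, GRCm39) had 758, 694 and 651 CPM in ControlΔEC and 639, 676 and 528 CPM in Wt1KOΔEC. Its log2 fold change was -0.19 (SE 0.15, 95% interval -0.53 to 0.15, adjusted p = 0.686 in edgeR). Plxnb2, a receptor of class 4 semaphorins, had 74.7, 111 and 75.5 CPM against 75.9, 77.9 and 81.2 CPM, where only ControlΔEC replicate 2 stood higher. Plxna2, which binds class 6 semaphorins, had 81.6, 120.0 and 67.9 CPM against 65.0, 87.2 and 54.1 CPM, with a log2 fold change of -0.39 (SE 0.25, adjusted p = 0.594 in edgeR). The remaining plexins A1, A3, A4 and B1 overlapped between the genotypes, with log2 fold changes between -0.38 and 0.38. Plxnb3, the receptor of Sema5a, was the exception among the receptors in size but not in certainty: its counts were 0, 1 and 0 in ControlΔEC and 0, 53 and 44 in Wt1KOΔEC. The genotypes overlapped at 0, the gene was tested only because 2 Wt1KOΔEC libraries passed the count minimum, and the fit gave an adjusted p of 0.290 in edgeR. Its levels in those libraries, 1.49 and 1.74 CPM, were low but well above the floor of 3 counts there, 0.0842 and 0.119 CPM.

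**Figure D3:**
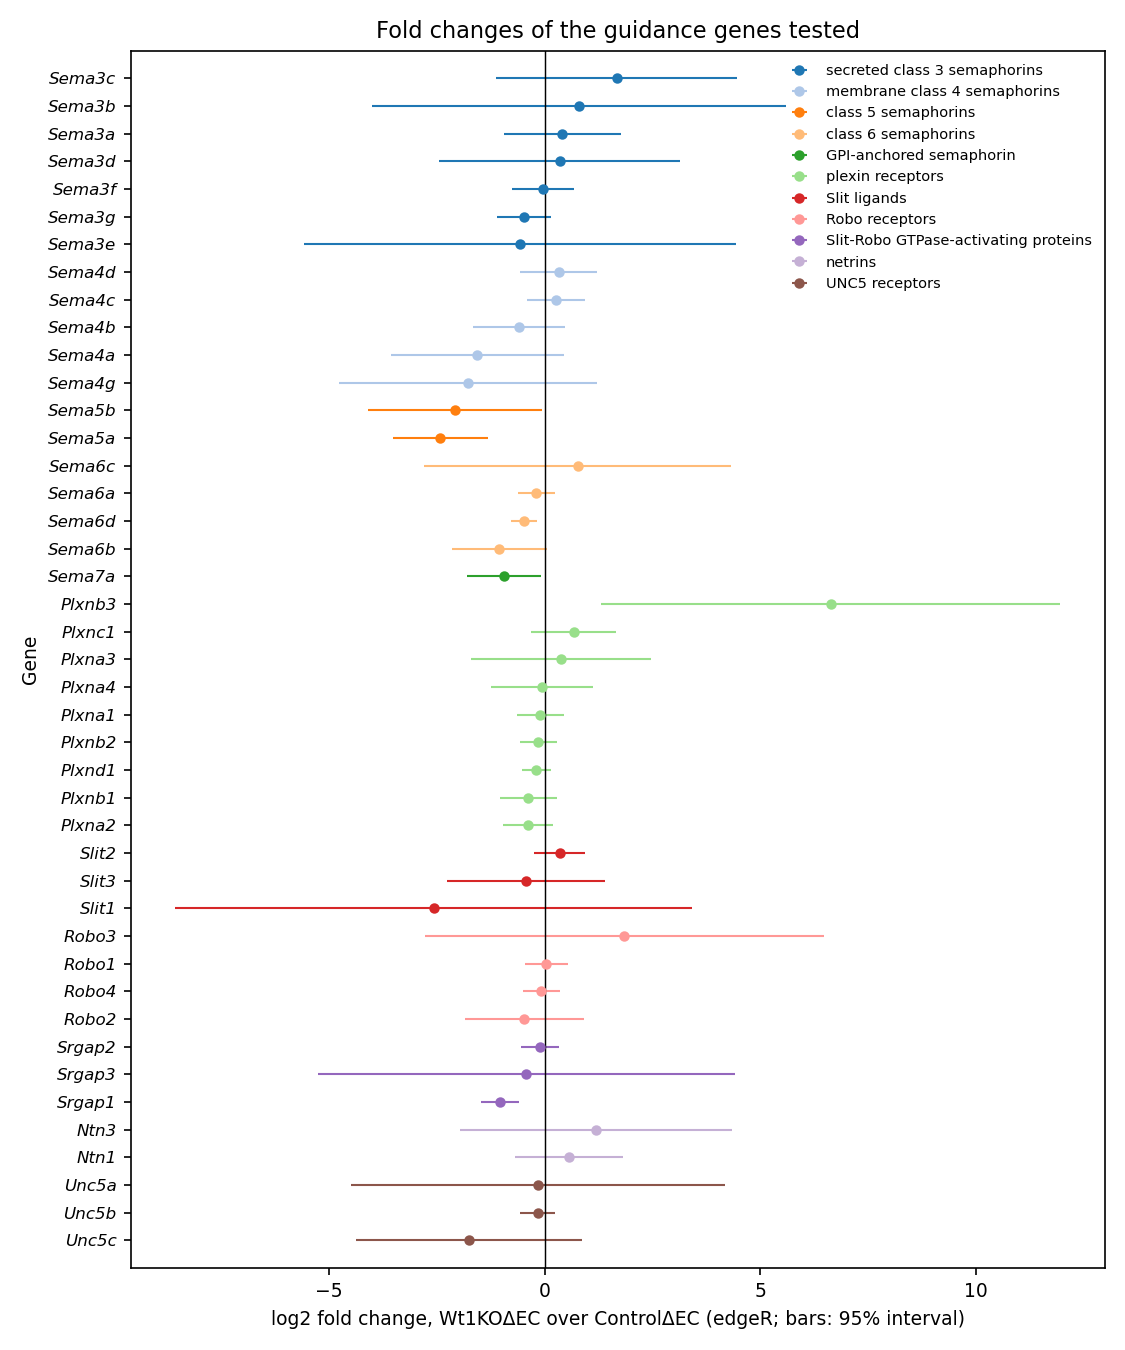
Log2 fold change of Wt1KOΔEC over ControlΔEC from edgeR for the 43 guidance genes tested, coloured and grouped by role, with bars of the 95% interval (n = 3 libraries per genotype). The intervals of Sema5a, Sema5b, Sema6d, Sema7a and Srgap1 lie below 0 and that of Plxnb3 above 0; those of Plxnd1, Robo4 and Unc5b are narrow and include 0.

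Among the Robo family, Robo4 (chr9:37313193-37326411, GRCm39), a vessel-stabilising receptor, had 466, 390.1 and 315 CPM in ControlΔEC and 408.5, 393 and 307 CPM in Wt1KOΔEC. The genotypes overlapped almost wholly, with a log2 fold change of -0.079 (SE 0.19, 95% interval -0.51 to 0.35, adjusted p = 0.927 in edgeR). Robo1, the most abundant Robo after Robo4 in these cells, averaged 36.9 ± 8.57 and 38.0 ± 5.22 CPM, a log2 fold change of 0.042 (SE 0.22, adjusted p = 0.971 in edgeR). Robo3 lies on the opposite strand with its 3′ end 0.554 kb from that of Robo4, and it averaged 0.185 CPM in ControlΔEC beside 390.3 CPM for Robo4. The ligand Slit2 was present at 17.3, 22.2 and 29.6 CPM in ControlΔEC and 25.5, 27.4 and 35.0 CPM in Wt1KOΔEC, overlapping with a log2 fold change of 0.35 (SE 0.26, adjusted p = 0.655 in edgeR), and Slit3 averaged 1.99 CPM in ControlΔEC.

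Downstream of Robo, the values of Srgap1 separated by genotype and those of its paralog Srgap2 overlapped. Srgap1, an F-BAR protein that binds the Robo1 tail (chr10:121616814-121883220, GRCm39, ENSMUSG00000020121.16), had 43.0, 51.5 and 59.6 CPM in ControlΔEC and 25.2, 26.6 and 23.6 CPM in Wt1KOΔEC. Every Wt1KOΔEC library was far below the lowest ControlΔEC library, a 2.05-fold lower mean with a log2 fold change of -1.03 (SE 0.20, 95% interval -1.48 to -0.59). Its unadjusted p of 0.000514 was the smallest of all guidance genes, with an adjusted p of 0.110 in edgeR and 0.000483 in DESeq2, and a range over all alternatives of 6.02e-05 to 0.404. Srgap2, the more abundant paralog, had 82.1, 99.8 and 127 CPM in ControlΔEC and 110.0, 87.2 and 87.8 CPM in Wt1KOΔEC. Its ControlΔEC range enclosed all of Wt1KOΔEC, with a log2 fold change of -0.12 (SE 0.20, adjusted p = 0.887 in edgeR). The Srgap1 to Srgap2 ratio within each library was 0.524, 0.516 and 0.470 in ControlΔEC and 0.229, 0.304 and 0.269 in Wt1KOΔEC, without overlap. A two-sided exact permutation test gave p = 0.1 for this ratio, the smallest value that 3 against 3 libraries can give, and 0.2 after adjustment over the 4 ratios compared, which were chosen after the values had been seen. The other ratios were Sema7a to Plxnc1 (exact p = 0.1), Sema6d to Sema6a (exact p = 0.2) and Plxnd1 to Robo4 (exact p = 0.4). Srgap3 averaged 0.474 CPM in ControlΔEC.

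On the netrin side the receptor was present and its netrin ligands were scarce. Unc5b (chr10:60598372-60667396, GRCm39) had 85.3, 105 and 73.2 CPM in ControlΔEC and 77.6, 87.3 and 70.0 CPM in Wt1KOΔEC. The genotypes overlapped, with a log2 fold change of -0.16 (SE 0.18, 95% interval -0.57 to 0.25, adjusted p = 0.792 in edgeR). Ntn1 averaged 4.25 ± 2.47 CPM in ControlΔEC and 6.31 ± 1.05 CPM in Wt1KOΔEC, overlapping between genotypes, and Ntn3 averaged 1.10 and 2.51 CPM. Ntn4 (counts of 0, 0 and 0 in ControlΔEC and 5, 0 and 13 in Wt1KOΔEC) and Ntn5 (0, 12 and 9 against 0, 0 and 2) had too few counts to be tested. Unc5a and Unc5c averaged 1.62 and 2.18 CPM in ControlΔEC, and Unc5d had no count in any library.

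Several of the scarce members were present in one library and absent from another of the same genotype. In 7 genes (Sema3d, Sema3e, Plxnb3, Slit1, Srgap3, Ntn3 and Unc5a) a library without a count stood beside one of the same genotype with 50 or more. Sema3d had 480, 0 and 230 counts in ControlΔEC, and Unc5a had 0, 240 and 0 there. Their intervals are wide in the plot of fold changes by role.

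The plot of fold change against level places these genes among all genes tested. Sema5a and Srgap1 lay in the lower part of the cloud at their level, whereas the abundant receptors sat at its centre. Other genes near the level of Srgap1 fell further, among them Adgre1 at -1.48 and Pdgfrb at -1.25.

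**Figure D4:**
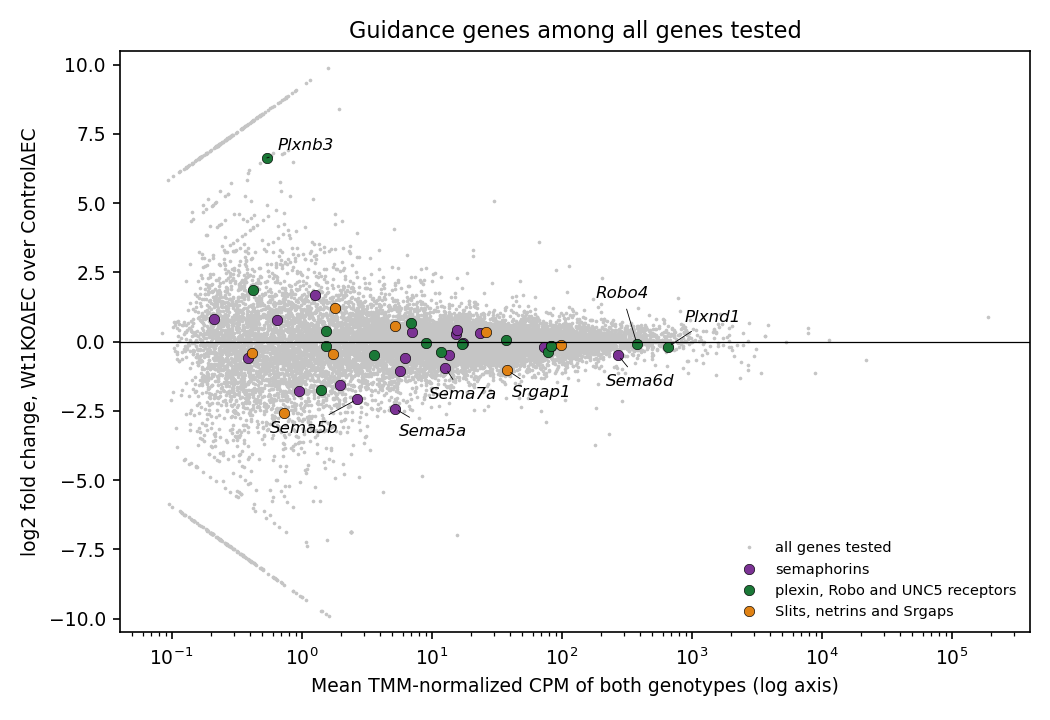
Log2 fold change of Wt1KOΔEC over ControlΔEC against the mean TMM-normalized CPM of both genotypes (log axis) for all 16296 genes tested (grey), with semaphorins in purple, plexin, Robo and UNC5 receptors in green, and Slits, netrins and Srgaps in orange. Sema5a and Srgap1, at log2 fold changes of -2.42 and -1.03, lie in the lower part of the cloud for their level. Plxnb3 lies among scarce genes that are near 0 in 1 genotype.

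Other genes of these pathways were taken from 8 lists of 91 genes: co-receptors, other ligands and receptors, proteoglycans, collapsin response mediators, plexin- and Robo-linked enzymes, and the cofilin pathway. Of the 82 tested, 0 were called by edgeR (against 0.0736% of all genes tested) and 4 by DESeq2, all lower (against 2.02%). At an unadjusted p under 0.05 in edgeR 9 were lower and 2 were higher, against 7.12% and 5.96% of all genes tested. Nrp1, the co-receptor of class 3 semaphorins and of VEGF, had 694, 712 and 765 CPM in ControlΔEC and 620.4, 710.2 and 555 CPM in Wt1KOΔEC, overlapping between genotypes with a log2 fold change of -0.20 (SE 0.15, adjusted p = 0.637 in edgeR). Nrp2, the co-receptor of Sema3f and Sema3g, had 177, 175 and 208 CPM in ControlΔEC and 173, 134 and 163 CPM in Wt1KOΔEC. The genotypes were narrowly without overlap, with a log2 fold change of -0.25 (SE 0.16, adjusted p = 0.589 in edgeR). Dcc, the attractive netrin receptor, had no count.

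Over all 82 pathway genes tested, the genotypes did not overlap in 9 that were lower and 3 that were higher in Wt1KOΔEC. The shares of all genes tested were 8.97% and 10.3%. Of the 9 genes lower at an unadjusted p under 0.05, a selection that favours such separation, 5 did not overlap between genotypes. Fes, a tyrosine kinase that plexin A1 engages, averaged 138 ± 36.8 CPM in ControlΔEC and 83.8 ± 5.86 CPM in Wt1KOΔEC (SD, n = 3), a log2 fold change of -0.72 (SE 0.21, adjusted p = 0.221 in edgeR). Myo9b, a myosin that Robo regulates, averaged 65.3 ± 14.4 and 36.1 ± 9.36 CPM, a log2 fold change of -0.86 (SE 0.25, adjusted p = 0.231 in edgeR). Arhgef12, an exchange factor bound by class B plexins, averaged 52.0 ± 7.66 and 33.5 ± 3.58 CPM, a log2 fold change of -0.63 (SE 0.19, adjusted p = 0.243 in edgeR). Dpysl3 and Cap1 completed the genes without overlap. Dpysl3, a collapsin response mediator, had 246, 175 and 99.0 CPM in ControlΔEC and 94.5, 94.2 and 89.8 CPM in Wt1KOΔEC, where the Wt1KOΔEC values were tight and ControlΔEC varied widely, and its log2 fold change was -0.90 (SE 0.28, adjusted p = 0.251 in edgeR). Cap1, an actin regulator that binds Abl kinases, averaged 225 ± 16.2 and 165 ± 18.1 CPM, a log2 fold change of -0.45 (SE 0.15, adjusted p = 0.274 in edgeR).

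The other 4 overlapped between genotypes, among them those with the largest fold changes of the 9. Abl2, a kinase downstream of Robo, averaged 31.4 ± 16.0 CPM in ControlΔEC and 12.9 ± 2.95 CPM in Wt1KOΔEC, a log2 fold change of -1.28 (SE 0.42, adjusted p = 0.262 in edgeR), with ControlΔEC replicate 2 at 13.0 CPM. Rap1b, a GTPase that plexins inactivate, ranged from 99.5 to 291 CPM in ControlΔEC and from 68.2 to 105 CPM in Wt1KOΔEC, a log2 fold change of -1.07 (SE 0.36, adjusted p = 0.267 in edgeR). The exchange factors Trio and Sos1 also overlapped. Trio averaged 65.2 ± 19.6 and 40.6 ± 5.71 CPM (log2 fold change -0.68, SE 0.25, adjusted p = 0.294 in edgeR), and Sos1 averaged 21.3 ± 5.67 and 13.0 ± 3.02 CPM (log2 fold change -0.72, SE 0.30, adjusted p = 0.359 in edgeR). Both genes that were higher at an unadjusted p under 0.05, the same kind of selection, were without overlap. Flrt2, a ligand of Unc5b, had 45.6, 28.9 and 45.7 CPM in ControlΔEC and 52.7, 63.6 and 70.9 CPM in Wt1KOΔEC (log2 fold change 0.64, SE 0.23, adjusted p = 0.288 in edgeR), and Vasp, an actin elongation factor, had 30.0 ± 4.22 and 43.6 ± 1.19 CPM (log2 fold change 0.54, SE 0.19, adjusted p = 0.284 in edgeR).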

How the data were processed

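RNA-Seq libraries of mGFP+ ECs from 3 ControlΔEC and 3 Wt1KOΔEC samples were analysed. The authors prepared them with SMART-seq2 and Nextera XT and sequenced paired reads of 51 bp. The deposited values are estimated counts per gene from RSEM after STAR alignment, given as whole numbers without normalization. The submitters' processing notes name STAR 2.7.8a, RSEM 1.3.0, DESeq2 1.18 and GRCm38, whereas the paper's methods name GRCm39 with a GENCODE annotation. No strand setting is given in the sources used here, and the paper states default parameters for RSEM. Replicates are labelled biological, and p-values measure the spread between these libraries. Totals of 26037324 to 44779020 counts bound counting error but not the spread between libraries.

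The 16296 genes for which 2 or more libraries held 10 or more counts were fitted in R 4.3.3 with edgeR 4.0.16 (TMM, quasi-likelihood F test, genotype only, Benjamini-Hochberg over all genes tested). DESeq2 1.42.0 and limma 3.58.1 gave alternatives, and Python 3.11.15 was used for ratios, motifs and plots. The SE was obtained by dividing the fitted change by the root of its F statistic. Scripts were tested on simulated data. Positions and exonic lengths come from GENCODE vM39 on GRCm39 by gene identifier (47 of 47 genes found), so levels per kb are approximate. Upstream windows come from RefSeq on GRCm38.p6, in which 39 of the 47 genes matched (not Sema3b, Sema3f, Sema6a, Plxna1, Plxna4, Slit1, Ntn1 and Unc5d). Described library by library were called genes, those at an unadjusted p under 0.05 and the 10 with the highest ControlΔEC level per kb. Sema5a, Sema6d and Unc5b were described so as well. Of the pathway lists, genes at an unadjusted p under 0.05, Nrp1 and Nrp2 were named, with levels by library, as mean and SD or as a range. Genes beyond this rule were named after their values were seen. The members and lists were chosen with earlier results of these data known.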

Additional observations from a re-analysis of the deposited data

How the results depend on the processing

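The count of guidance genes called, 0 by edgeR with 6 at an unadjusted p under 0.05 (4 to 7 without 1 library), was 2 (Sema5a and Srgap1) in DESeq2, 2 in DESeq2 on every gene with a count (chosen after seeing the data), 2 with 10 counts required in every library, 1 (Srgap1) without a filter and 5 with an unadjusted p and the fold limit; it was 0 in each run without 1 library. Calls over all genes, 12 at first, numbered 599 in DESeq2, 759 in DESeq2 on every gene with a count, 296 without a filter, 113 with 10 counts in every library, 6 with length and GC offsets and 1652 with an unadjusted p; without 1 library they ranged from 2 to 37. Library size scaling alone moved the median of all genes to -0.18 and that of the guidance genes to -0.32. Pathway genes at an unadjusted p under 0.05, 11 at first, numbered 20 with library size alone, 19 without a filter and 18 in DESeq2 on every gene with a count, and 8 to 20 without 1 library, the highest without ControlΔEC replicate 3. Without 1 library, log2 fold changes ran from -0.21 to 0.069 for Robo4 (above 0 without ControlΔEC replicate 1 or, at 0.037, Wt1KOΔEC replicate 3), from -0.25 to 0.063 for Plxnb2 (above 0 without ControlΔEC replicate 2) and from -0.25 to 0.064 for Srgap2 (above 0 without ControlΔEC replicate 3). Other uncalled changes kept their sign but shrank, to -0.12 for Plxna2 and -0.017 for Unc5b without ControlΔEC replicate 2, -0.035 for Sema6a without ControlΔEC replicate 3 and -0.093 for Plxnd1 without Wt1KOΔEC replicate 3. The cause of these shifts was not tested. Deviations of same-numbered libraries from their genotype means correlated at 0.057, 0.0045 and 0.020, so the numbers were not taken as pairs; a replicate block gave 5 calls over all genes, 6 with length and GC offsets added, and 0 guidance genes. The remaining alternatives, limma-voom, RLE and upper-quartile scaling, filterByExpr and leaving out Rn18s and mitochondrial genes, changed no call of a guidance gene. Low counts limit the 11 members under 1 CPM, and the part of depth in this was not tested.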
